A study of Caenorhabditis elegans with 30 samples.

Results

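The genes described here are the 5 superoxide dismutase genes (sod-1 to sod-5) and the 3 catalase genes (ctl-1 to ctl-3) of Caenorhabditis elegans. Their probe sets were found by gene symbol, and the genes were chosen with earlier results of these data known. Each of the 8 genes has 1 probe set among the 28387 probe sets of the array, which name 25877 single genes. Total RNA of whole animals was hybridised to 30 Affymetrix arrays, 3 for each of 10 groups, and the values are log2 signals after RMA, a normalisation that makes arrays comparable. The study compared knockdown of pmt-2, whose product methylates phosphoethanolamine to build phosphatidylcholine, with a drug that stresses the endoplasmic reticulum (ER) in wild type. The knockdown, but not the drug, was also applied to knockouts of each of the 3 ER stress sensors. Wild-type N2 animals received the empty vector pL4440, received RNAi against pmt-2, or were exposed to tunicamycin. This inhibitor of N-glycosylation was given at 25 µg/mL for 4 hours. Animals labelled ATF6 knockout, IRE1 knockout or PEK1 knockout each received the vector or the RNAi. Animals labelled PMT2 knockout received the vector and served as a control for the RNAi. No allele names are given in the labels. All animals were labelled young adult and grew from the first larval stage on medium with 25 µg/mL carbenicillin and 1 mM IPTG.

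Superoxide dismutases turn superoxide, a by-product of respiration and of oxidases, into hydrogen peroxide, and catalases turn hydrogen peroxide into water and oxygen. The worm has copper and zinc enzymes in the cytosol (sod-1, the main form, and sod-5) and outside the cell or at its surface (sod-4), and manganese enzymes in mitochondria (sod-2, the main form, and sod-3). ctl-1 encodes a cytosolic catalase and ctl-2 the peroxisomal one. In the coordinates of the deposited tables (genome build not given in the sources used here) sod-1 lies on chromosome II at 6972670 to 6973850, sod-5 on II at 4417683 to 4419131, sod-4 on III at 9496927 to 9500120, sod-2 on I at 8434483 to 8435808 and sod-3 on X at 17092644 to 17094149. The catalase genes lie side by side on the minus strand of chromosome II within 11227 bases, ctl-2 at 14299477 to 14301974, ctl-1 at 14303536 to 14306217 and ctl-3 at 14307778 to 14310703. The gaps between them are 1561 and 1560 bases. The 3 genes are similar in sequence, and cross-hybridisation between their probe sets was not tested.

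Whether arrays of the same group came from different cultures is not stated in the labels, so the p-values measure the spread between arrays, which may be technical. For the RNAi and tunicamycin groups of the wild type, the source labels are swapped against the titles and characteristics, and the latter were used here. The targeted gene pmt-2 bore these out, with a mean log2 signal of 10.14 on vector, 6.63 with RNAi, 8.7 with tunicamycin and 4.7 in the pmt-2 mutant. The ire-1 signal was 6.19 and 6.02 in the 2 groups of the ire-1 mutant and at least 8.07 elsewhere, and pek-1 was lower by a log2 change of -0.84 in its mutant (adjusted p = 0.000109). The atf-6 probe set did not separate its mutant from the wild type (log2 change -0.23, adjusted p = 0.467). The wild-type RNAi arrays were less alike than those of any other group by their mean correlation for arrays 1 and 2 (0.9855 and 0.9842), and their 7 hypodermis markers averaged 6.74, 8.43 and 7.39. Tunicamycin was given in M9 buffer, a step the labels describe for that group alone, and the drug cannot be told apart from the buffer. In RNA of whole animals, fewer cells of a type and less RNA per cell cannot be told apart either. Against wild type on vector, the hypodermis marker col-19 was lower in the pmt-2 mutant by a log2 change of -7.35. The oocyte and eggshell markers averaged 4.68 to 4.81 there and 10.92 to 11.01 in wild type. Whether the mutant was at the same stage as the other groups, beyond the young adult label, was not tested.

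Lowering pmt-2, by RNAi or by mutation, went with higher signals of sod-4, ctl-1 and ctl-2 and a lower signal of sod-1. The first 3 of these were also higher with tunicamycin, with no detected change of sod-1. The pmt-2 signal itself was lower with tunicamycin too (log2 change -1.44, limma adjusted p = 5.34e-10). The part of that fall in the tunicamycin changes was not tested. With RNAi in wild type, 5 of the 8 genes passed the limma test at an adjusted p of 0.05 (sod-4 and the 3 catalases higher, sod-1 lower), where 33.3% of all probe sets did (15.6% higher, 17.7% lower). With tunicamycin 5 passed as well (sod-4 and the 3 catalases higher, sod-3 lower), where 16.6% of all probe sets did (8.24% higher, 8.37% lower). In the pmt-2 mutant 7 passed (sod-4, sod-5, ctl-1 and ctl-2 higher, sod-1, sod-2 and ctl-3 lower), where 59.2% did (28.4% higher, 30.8% lower). The median change of the 8 genes was 0.66, 0.4 and 0.33 in these comparisons, beside -0.09, 0.02 and -0.13 over all probe sets. The 3 comparisons share the wild-type vector arrays. On leaving out each compared array in turn, the change with RNAi in wild type lay between 1.61 and 1.93 for sod-4, 1.31 and 1.51 for ctl-1, 1.02 and 1.33 for ctl-2 and 1.73 and 1.97 for ctl-3, and each passed.

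**Figure D1:**
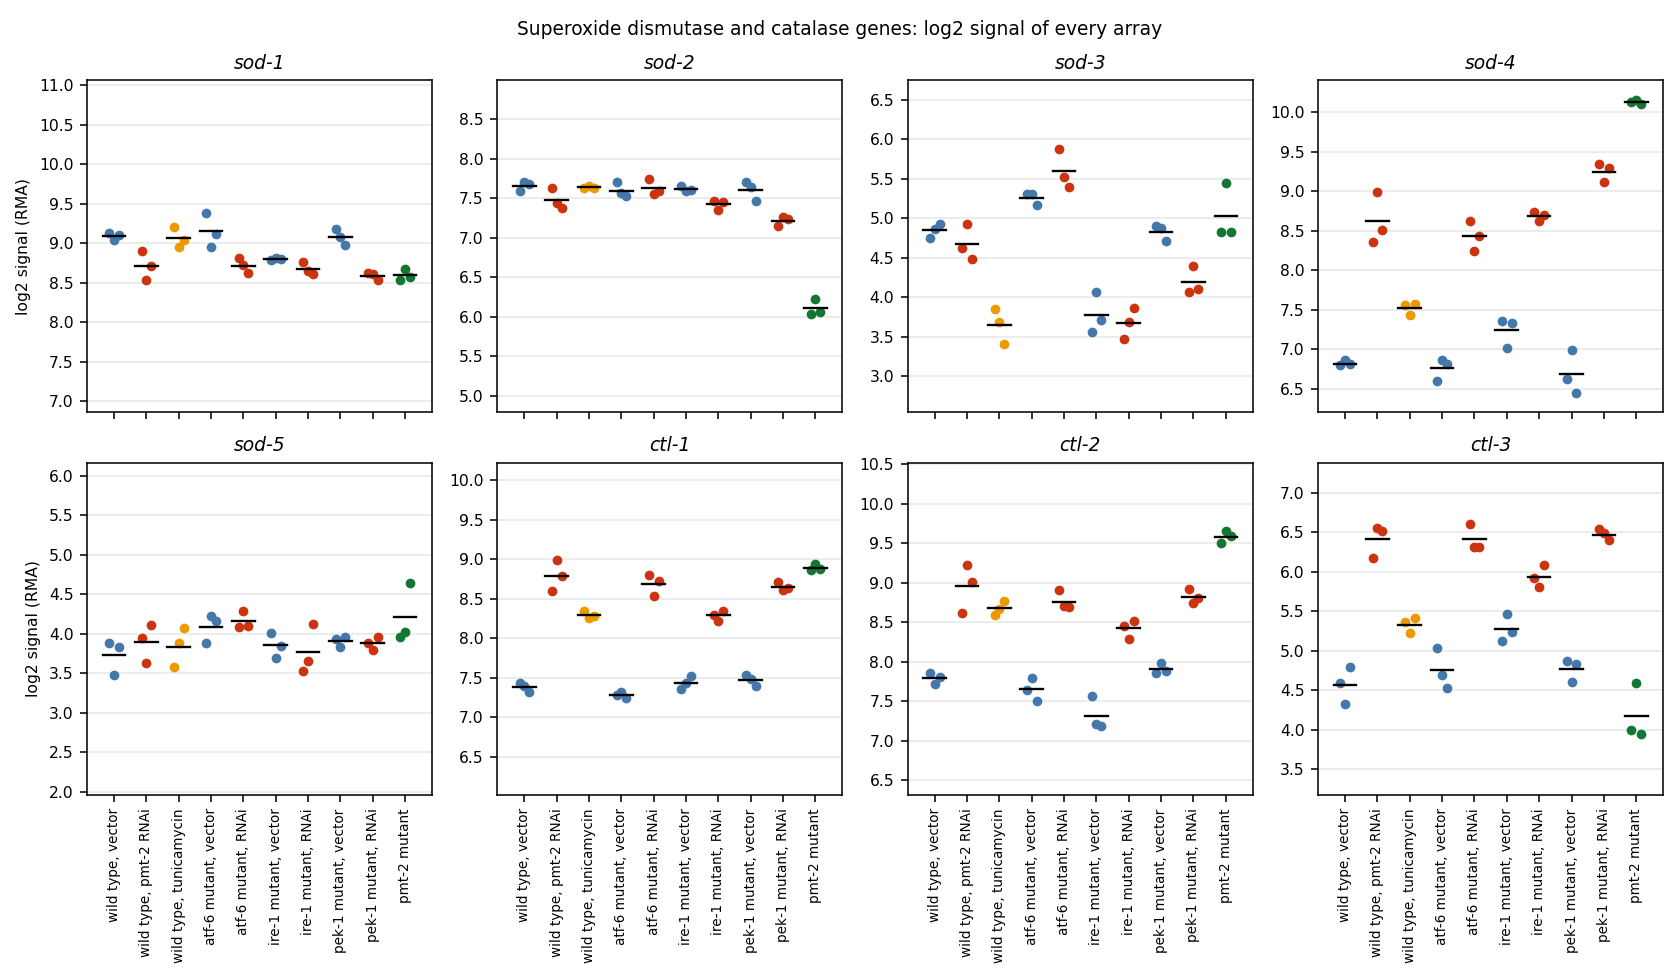
Log2 signal (vertical axis, RMA) of each superoxide dismutase and catalase gene in every array of the 10 groups (horizontal axis). Points are arrays, bars are group means, and all panels span the same range of log2 units. sod-4, ctl-1 and ctl-2 are highest in the pmt-2 mutant, with means of 10.13, 8.89 and 9.58, and sod-5 stays between 3.48 and 4.65 throughout.

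The extracellular superoxide dismutase gene sod-4 had the widest range of the family, 3.44 log2 units between its highest and lowest group means, and 95% of all probe sets had a smaller range. Its log2 signals were 6.8, 6.86 and 6.81 in wild type on vector, 8.36, 8.99 and 8.51 with RNAi, 7.56, 7.43 and 7.57 with tunicamycin, and 10.13, 10.16 and 10.11 in the pmt-2 mutant. The arrays of these 4 groups did not overlap, in the order vector, tunicamycin, RNAi, mutant. sod-4 rose 3.48-fold with RNAi (log2 change 1.8, SE 0.14, adjusted p = 3.67e-10) and 1.62-fold with tunicamycin (0.7, SE 0.14, adjusted p = 0.000816). In the pmt-2 mutant it was 9.9-fold higher (3.31, SE 0.14, adjusted p = 1.9e-16). Set directly against RNAi, tunicamycin gave a lower signal (-1.1, adjusted p = 1.13e-06) and the mutant a higher one (1.51, adjusted p = 1.35e-09).

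sod-4 also rose with RNAi in each sensor mutant. The signals were 6.6, 6.87 and 6.82 on vector and 8.63, 8.25 and 8.44 with RNAi in the atf-6 mutant, a log2 change of 1.68. In the ire-1 mutant they were 7.36, 7.02 and 7.33 on vector and 8.74, 8.62 and 8.7 with RNAi, a change of 1.45. In the pek-1 mutant they were 6.62, 6.99 and 6.45 on vector and 9.35, 9.12 and 9.29 with RNAi, a change of 2.56. Vector and RNAi arrays did not overlap in any of the 3 mutants, and the limma adjusted p was at most 1.46e-07. The response in the pek-1 mutant exceeded that in wild type by 0.77 (95% interval 0.35 to 1.18), with an adjusted p of 0.0598. That difference had a limma adjusted p of 0.00212 without wild-type RNAi array 2 and 0.0242 without pek-1 vector array 2. Over all arrays left out in turn it lay between 0.64 and 0.95, with an adjusted p of up to 0.199. It passed in 7 of 19 alternatives and did not in 12. In the atf-6 and ire-1 mutants the response differed from the wild type by -0.12 (interval -0.54 to 0.3) and -0.35 (interval -0.77 to 0.07). On vector, sod-4 was 0.42 higher in the ire-1 mutant than in wild type (limma adjusted p = 0.0881).

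The main cytosolic form, sod-1, varied little, with 0.56 log2 units between its highest and lowest group means. Its signals were 9.13, 9.04 and 9.11 in wild type on vector, 8.91, 8.54 and 8.72 with RNAi, 9.21, 8.95 and 9.04 with tunicamycin and 8.54, 8.68 and 8.57 in the pmt-2 mutant. Every RNAi and mutant array lay below every vector array, while the tunicamycin arrays overlapped with vector. sod-1 fell by 0.37 on the log2 scale with RNAi (SE 0.11, adjusted p = 0.00821) and by 0.5 in the mutant (adjusted p = 0.00023). The call with RNAi was lost without RNAi array 2 (-0.28, adjusted p = 0.0706) and with the spread of the 2 groups alone (adjusted p = 0.103). By the authors' deposited FDR p-value it did not pass either (0.122), and centred on the median change it passed narrowly (limma adjusted p = 0.0498). The tunicamycin change was -0.03 (95% interval -0.25 to 0.19).

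In the sensor mutants, sod-1 fell with RNAi by 0.43 where atf-6 was disrupted and by 0.49 where pek-1 was (limma adjusted p = 0.00273 and 0.00055). The atf-6 call was lost with the spread of the 2 groups alone (adjusted p = 0.0571) and by the authors' deposited FDR p-value (0.115). In the ire-1 mutant its signals were 8.79, 8.81 and 8.8 on vector and 8.76, 8.65 and 8.61 with RNAi, a change of -0.12 (adjusted p = 0.427). All 3 ire-1 vector arrays lay below the wild-type vector arrays (-0.29, adjusted p = 0.109). That difference passed in 3 of 14 alternatives, but not on leaving out any 1 array (limma adjusted p = 0.148 to 0.245). It passed by the FDR p-value of the authors' deposited table (0.0491) and with a minimum mean signal of 5 (adjusted p = 0.0364). The third was the fit with array weights (0.0465), which did not converge. The RNAi response of sod-1 in the ire-1 mutant differed from that in wild type by 0.25 (interval -0.06 to 0.56), which did not pass the test.

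The minor cytosolic form sod-5 gave signals between 3.48 and 4.65, close to the median signal of the arrays (3.74 to 3.89), and its group means differed by at most 0.48. In order of their means, each of the 10 groups overlapped with its neighbours. Its signals in the pmt-2 mutant were 3.96, 4.03 and 4.65 against 3.88, 3.48 and 3.84 in wild type. The limma test called it higher there (0.48, SE 0.18, adjusted p = 0.0205), but not without mutant array 3 (0.27, adjusted p = 0.202), nor without wild-type array 2 (0.36, adjusted p = 0.116). From the authors' deposited means the difference was 0.14 (adjusted p = 0.513).

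The main mitochondrial form, sod-2, stood apart in the pmt-2 mutant alone among the 10 groups by more than 1 log2 unit. Its signals were 7.6, 7.71 and 7.68 in wild type on vector and 6.04, 6.23 and 6.06 in the mutant, with no overlap. sod-2 fell by 1.55 on the log2 scale (SE 0.09, adjusted p = 6.68e-14), a 2.93-fold difference. The mutant lay below wild-type RNAi as well (-1.37, adjusted p = 1.66e-12). In the same arrays all 16 oocyte and eggshell markers were lower (30.8% of all probe sets), with a mean signal of 4.68 to 4.81 against 10.92 to 11.01 in wild type. Neuronal markers were higher in 15 of 15 cases (28.4% of all probe sets). The part of these marker shifts in the sod-2 difference was not tested.

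With RNAi, sod-2 fell in the pek-1 mutant by 0.39 (from 7.71, 7.65 and 7.47 to 7.15, 7.27 and 7.24, limma adjusted p = 0.00095), and those arrays did not overlap. In wild type the difference was -0.18 (adjusted p = 0.138, or 0.0444 without RNAi array 1), in the atf-6 mutant 0.03 and in the ire-1 mutant -0.2 (adjusted p = 0.112). The difference between the pek-1 mutant and wild type in this response was -0.21 (interval -0.48 to 0.05) and did not pass the test. With tunicamycin the sod-2 difference was -0.02 (adjusted p = 0.934).

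The other mitochondrial form, sod-3, is a widely used reporter of the FOXO factor DAF-16. It was lowest with tunicamycin and where ire-1 was disrupted. Its signals were 4.75, 4.86 and 4.93 in wild type on vector, 3.85, 3.68 and 3.41 with tunicamycin and 3.56, 4.06 and 3.71 in the ire-1 mutant on vector. Both groups lay wholly below wild type. Their means of 3.65 and 3.77 lay near the median signal of the arrays (3.74 to 3.89), and how far background limits the measured difference was not tested. sod-3 fell by 1.2 with tunicamycin (SE 0.17, limma adjusted p = 7.77e-06) and by 1.08 in the ire-1 mutant (adjusted p = 0.000142). Both comparisons share the wild-type vector arrays. By the FDR p-value in the authors' deposited table the ire-1 difference did not pass (0.0869).

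With RNAi the sod-3 difference in wild type was -0.18 (signals 4.62, 4.92 and 4.48, adjusted p = 0.463), and in the ire-1 mutant -0.1 (signals 3.47, 3.68 and 3.86). In the pek-1 mutant it fell by 0.64, from 4.9, 4.88 and 4.71 to 4.07, 4.4 and 4.1 (adjusted p = 0.00317). In the atf-6 mutant the signals were 5.31, 5.31 and 5.17 on vector and 5.88, 5.52 and 5.4 with RNAi, the highest of the 10 groups. The atf-6 vector arrays lay above those of wild type without overlap, but the difference of 0.42 did not pass the test over all probe sets (adjusted p = 0.379). The responses to RNAi in the atf-6 and pek-1 mutants differed from that in wild type by 0.51 (interval 0.02 to 1.01) and -0.47 (interval -0.96 to 0.03), and neither passed. The pmt-2 mutant (4.82, 5.45 and 4.83) overlapped with wild type.

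**Figure D2:**
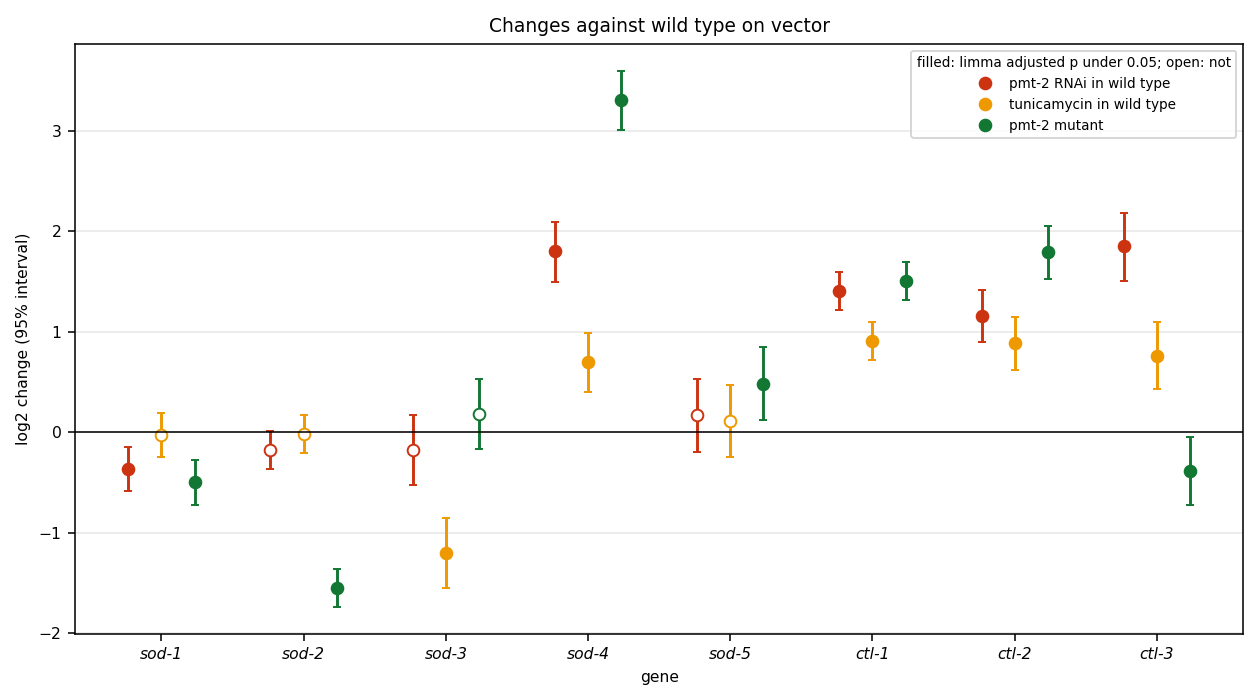
Log2 change against wild type on vector (vertical axis) for each gene (horizontal axis) with pmt-2 RNAi, tunicamycin and in the pmt-2 mutant. Points are differences of 3 and 3 arrays, bars are 95% intervals from limma, and filled points passed an adjusted p of 0.05. ctl-3 is at 1.85 with RNAi, 0.76 with tunicamycin and -0.39 in the mutant.

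The catalase genes ctl-1 and ctl-2 were higher in each of these 3 conditions. ctl-1 gave signals of 7.44, 7.39 and 7.32 in wild type on vector, 8.6, 8.99 and 8.79 with RNAi, 8.34, 8.26 and 8.28 with tunicamycin and 8.86, 8.94 and 8.88 in the pmt-2 mutant. No array of the 3 conditions overlapped with vector, and the RNAi and mutant arrays overlapped with each other. ctl-1 rose 2.66-fold with RNAi (1.41, SE 0.09, adjusted p = 1.17e-11), 1.88-fold with tunicamycin (0.91, adjusted p = 4.73e-08) and was 2.85-fold higher in the mutant (1.51, adjusted p = 1.89e-13). Mutant and RNAi differed by 0.1 (interval -0.09 to 0.29).

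The peroxisomal catalase gene ctl-2 had signals of 7.85, 7.71 and 7.81 on vector, 8.61, 9.22 and 9.01 with RNAi, 8.59, 8.67 and 8.77 with tunicamycin and 9.5, 9.65 and 9.59 in the pmt-2 mutant. All 3 conditions lay above vector, RNAi and tunicamycin overlapped, and the mutant lay above both. The rise was 2.23-fold with RNAi (1.16, SE 0.13, limma adjusted p = 9.2e-08) and 1.85-fold with tunicamycin (0.89, adjusted p = 9.02e-06). The mutant was 3.46-fold higher than wild type (1.79, adjusted p = 3.02e-12) and 1.55-fold higher than wild-type RNAi (0.63, adjusted p = 0.000127).

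The third gene of the cluster, ctl-3, rose with RNAi and tunicamycin but not in the pmt-2 mutant. Its signals were 4.59, 4.33 and 4.79 on vector, 6.17, 6.56 and 6.52 with RNAi, 5.36, 5.23 and 5.41 with tunicamycin and 4, 4.59 and 3.95 in the mutant. RNAi and tunicamycin arrays lay above vector without overlapping each other, and the mutant overlapped with vector. ctl-3 rose 3.59-fold with RNAi (1.85, SE 0.16, adjusted p = 2.13e-09) and 1.7-fold with tunicamycin (0.76, adjusted p = 0.00117). The tunicamycin rise did not pass by the FDR p-value of the authors' deposited table (0.0713). The mutant lay 4.7-fold below wild-type RNAi (-2.23, adjusted p = 1.06e-11).

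Against wild type on vector, ctl-3 in the pmt-2 mutant changed by -0.39 (SE 0.16, limma adjusted p = 0.0434). That call was lost without wild-type array 1 (adjusted p = 0.0881), wild-type array 3 (0.192), mutant array 1 (0.171) or mutant array 3 (0.201). All probe sets had a median change of -0.13 in this comparison. Relative to that median the changes were 3.44 for sod-4, 1.92 for ctl-2, 1.64 for ctl-1, 0.62 for sod-5, -0.36 for sod-1 and -1.42 for sod-2. ctl-3 then no longer passed (-0.25, adjusted p = 0.196).

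In the sensor mutants on vector, 3 of the 8 genes differed from wild type where ire-1 was disrupted (6.16% of all probe sets, 2.98% higher and 3.18% lower), and 0 of 8 where atf-6 (0.194%) or pek-1 (0.113%) was. At an unadjusted limma p under 0.05 the counts were 1 gene for atf-6 (sod-3) and 0 for pek-1, and the test rebuilt from the deposited means and the authors' FDR also gave 0 for both. Beside the fall of sod-3, ctl-2 was lower in the ire-1 mutant (7.56, 7.21 and 7.18, change -0.48, adjusted p = 0.023) and ctl-3 higher (5.12, 5.47 and 5.24, change 0.71, adjusted p = 0.00779). Both groups lay apart from the wild-type vector arrays. Without 1 array, the change of ctl-2 no longer passed on leaving out wild-type array 1 or 3 or ire-1 array 2 or 3 (adjusted p = 0.0846, 0.0727, 0.106 and 0.118). That of ctl-3 no longer passed without wild-type array 2 or ire-1 array 2 (adjusted p = 0.0574 and 0.0554). With the spread of the 2 groups alone neither passed (0.112 for ctl-2 and 0.0643 for ctl-3), nor by the FDR p-values of the authors' deposited table (0.193 and 0.163). The ctl-1 difference was 0.05 (interval -0.14 to 0.25). The ire-1 vector arrays of sod-4 lay above those of wild type without overlap, but the difference of 0.42 did not pass (adjusted p = 0.0881). It passed in 3 of 14 alternatives, with array weights (0.0326), a minimum mean signal of 5 (0.0354) and the deposited means (0.0178). The hypodermis markers averaged 6.99 to 7.47 in the ire-1 vector arrays and 5.93 to 6.72 in wild type, and their part in these differences was not tested.

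**Figure D3:**
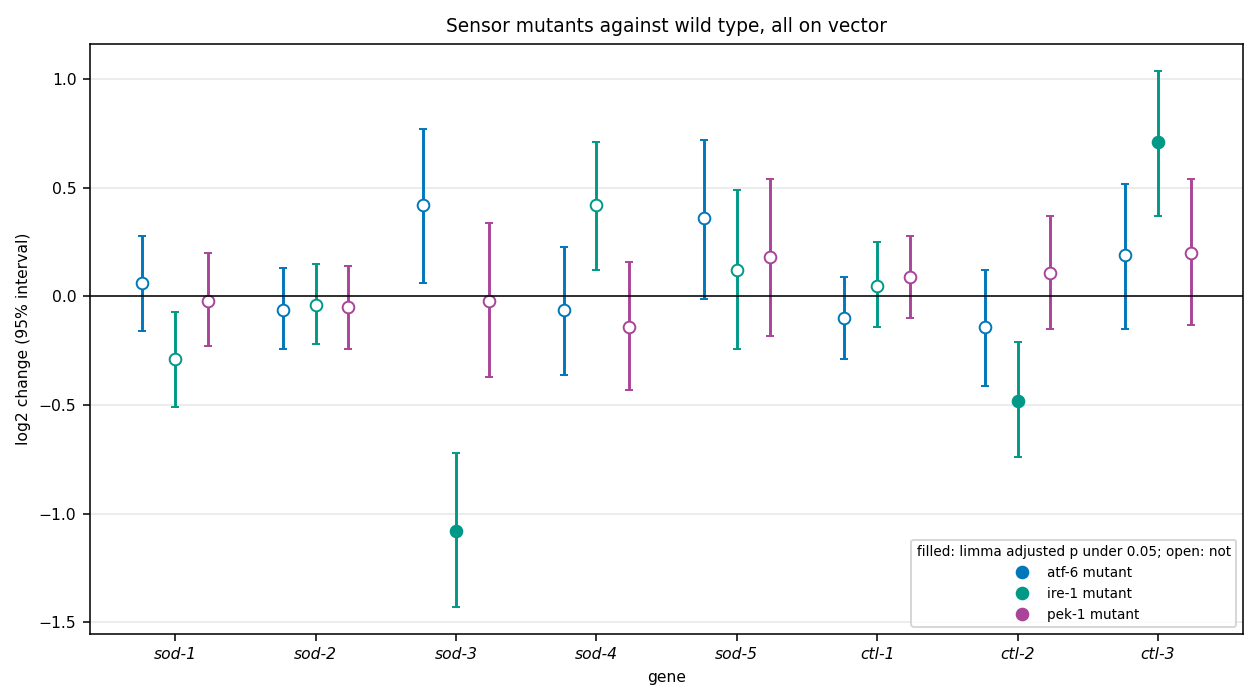
Log2 difference from wild type (vertical axis) of each gene (horizontal axis) in the atf-6, ire-1 and pek-1 mutants, all on vector. Points are differences of 3 and 3 arrays, bars are 95% intervals from limma, and filled points passed an adjusted p of 0.05. The filled points are sod-3 (-1.08), ctl-2 (-0.48) and ctl-3 (0.71) in the ire-1 mutant.

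The response to RNAi was also measured within each sensor mutant. sod-4 and the 3 catalases rose in all 3, and the genes that passed numbered 5 of 8 in the atf-6 mutant (29.9% of all probe sets, 13.8% higher and 16.1% lower), 4 in the ire-1 mutant (28.1%, 14.3% higher) and 7 where pek-1 was disrupted (43.9%, 18.7% higher and 25.2% lower). The median change over all probe sets was -0.15 in the pek-1 mutant. Relative to it sod-4 changed by 2.71, ctl-3 by 1.85, ctl-1 by 1.32, ctl-2 by 1.06, sod-1 by -0.34, sod-2 by -0.24 and sod-3 by -0.5, and all 7 still passed.

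The rises of ctl-1 and ctl-3 were smaller in the ire-1 mutant than in wild type, and these were the 2 genes of 8 whose response to RNAi differed there (6.25% of all probe sets, 3.14% lower). In the ire-1 mutant ctl-3 went from 5.12, 5.47 and 5.24 to 5.92, 5.81 and 6.09, a rise of 0.66 (limma adjusted p = 0.00356). The response lay below that in wild type by a log2 difference of -1.18 (SE 0.23, interval -1.66 to -0.71, adjusted p = 0.00158), and between -1.31 and -1.06 without any 1 array. The RNAi arrays of the ire-1 mutant lay below all wild-type RNAi arrays, and its vector arrays above all wild-type vector arrays.

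For ctl-1 the ire-1 mutant went from 7.36, 7.44 and 7.52 to 8.3, 8.22 and 8.34, a rise of 0.85 (limma adjusted p = 6.45e-07). The difference from wild type was -0.56 (SE 0.13, interval -0.83 to -0.29, adjusted p = 0.00806). The vector arrays of the 2 genotypes overlapped, and the RNAi arrays did not. Without any 1 array the difference lay between -0.66 and -0.46 and passed, but with the spread of these 4 groups alone the adjusted p was 0.0892. The knockdown itself was weaker in the ire-1 mutant, where pmt-2 fell by 2.18 (to 7.47), than in wild type, where it fell by 3.51 (difference 1.33, SE 0.16, adjusted p = 3.55e-06). The part of the weaker knockdown in the catalase differences was not tested.

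ctl-2 rose in the ire-1 mutant from 7.56, 7.21 and 7.18 to 8.45, 8.29 and 8.51. That rise of 1.1 differed from the one in wild type by -0.05 (interval -0.42 to 0.32). In the atf-6 mutant ctl-1 rose by 1.4, ctl-2 by 1.12 and ctl-3 by 1.66, and in the pek-1 mutant by 1.18, 0.92 and 1.7. In those 2 mutants 0 of the 8 genes had a response that passed as different from wild type by limma (0.0282% and 1.24% of all probe sets). At an unadjusted p under 0.05 the count was 1 in each, sod-3 for atf-6 and sod-4 for pek-1, and the rebuilt test gave 0 and 1.

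**Figure D4:**
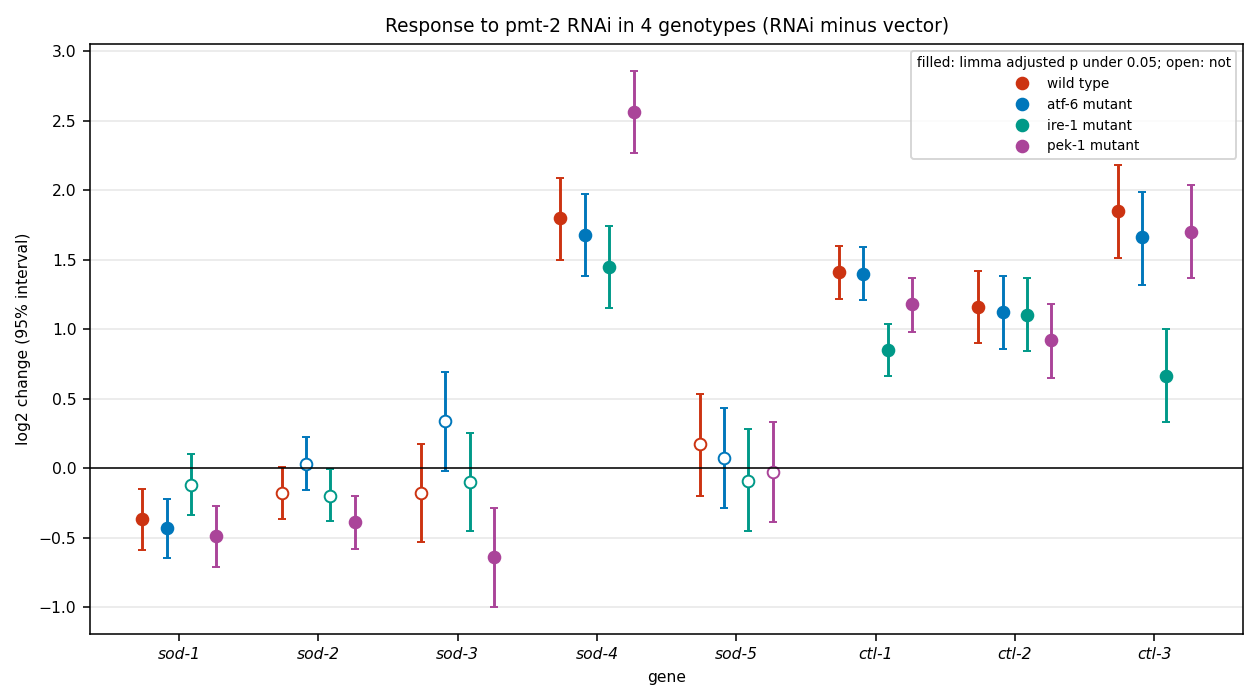
Log2 change with pmt-2 RNAi against vector (vertical axis) of each gene (horizontal axis) in wild type and the 3 sensor mutants. Points are differences of 3 and 3 arrays, bars are 95% intervals from limma, and filled points passed an adjusted p of 0.05. For ctl-3 the ire-1 mutant is at 0.66 and the other genotypes lie between 1.66 and 1.85.

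Tunicamycin and RNAi in wild type were also set against each other, and 5 of the 8 genes differed (39.7% of all probe sets, 22.2% higher and 17.5% lower). Besides sod-4, ctl-1 (-0.5, limma adjusted p = 0.000116), ctl-3 (-1.08, adjusted p = 8.54e-06) and sod-3 (-1.02, adjusted p = 3.23e-05) were lower with tunicamycin. sod-1 was higher (0.34, adjusted p = 0.012). The median over all probe sets was 0.13 here, and relative to it sod-1 no longer passed (0.22, adjusted p = 0.125), while ctl-2 did (-0.4, adjusted p = 0.0153, against -0.27 and 0.0921 without centring and -0.44 and 0.00492 without RNAi array 1). The sod-1 call was also lost without RNAi array 2 or tunicamycin array 1 (adjusted p = 0.093 and 0.0707). In the pmt-2 mutant against RNAi, 4 of 8 differed (51.5% of all probe sets, 27.7% higher and 23.8% lower), which were sod-4 and ctl-2 higher and sod-2 and ctl-3 lower. sod-3 (0.36, adjusted p = 0.0833) passed as higher without RNAi array 2 or mutant array 1 or 3 (adjusted p = 0.0324, 0.0429 and 0.0475).

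Across the 10 group means, which share the genotypes and the RNAi, ctl-1 and ctl-2 followed each other (Pearson's r = 0.95) and sod-4 followed both (0.9 and 0.88). sod-1 ran opposite to sod-4 (-0.9), and the value for ctl-3 and its neighbour ctl-2 was 0.25. Among 11920 genes, the patterns most like sod-4 were those of ptr-23, F47E1.17 and dve-1 (each 0.994). Those most like sod-2 were chmp-7 (0.996), arv-1 and parp-2 (both 0.995). The sod-2 group means lay between 7.22 and 7.66 outside the pmt-2 mutant and at 6.11 in it, so these values rest largely on that group. For ctl-1 they were M01H9.3 and siah-1 (both 0.992), for ctl-2 fshr-1 (0.977) and for ctl-3 ZK930.2 (0.989). The closest to sod-3 was col-98 at 0.8.

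Other genes of peroxide metabolism were counted in the 3 main comparisons, in which, as given above, 33.3% (RNAi), 16.6% (tunicamycin) and 59.2% (pmt-2 mutant) of all probe sets passed. Of 26 genes for peroxide removal and thiol redox, 4 rose and 4 fell with RNAi, 2 rose and 3 fell with tunicamycin, and 7 rose and 11 fell in the pmt-2 mutant, which is near those shares, and the list's median changes were -0.07, -0.08 and -0.18. The thioredoxin gene trx-3 rose in all 3 conditions (3.04, 1.63 and 3.43). The glutathione peroxidase gene gpx-3 rose with RNAi and in the mutant (2.26 and 2.97) and fell with tunicamycin (-0.87). msra-1, a methionine sulfoxide reductase gene, fell with RNAi and tunicamycin (-1.39 and -1.62). Of 11 genes of peroxisome assembly, the site of ctl-2 activity, 3 rose and 1 fell with RNAi, 3 rose and 0 fell with tunicamycin and 5 rose and 3 fell in the mutant, with medians of 0.12, 0.21 and 0.25, and prx-13 rose in each (0.69, 0.43 and 1.13). Among 7 genes whose products make hydrogen peroxide or use it at the cuticle, 2 rose and 1 fell with RNAi, 0 rose and 1 fell with tunicamycin, and 4 rose and 1 fell in the mutant, with medians of 0.28, 0.07 and 0.95. The peroxidase gene skpo-2 (2.21 and 4.67) and the tetraspanin gene tsp-15 (1.14 and 2.55) rose with RNAi and in the mutant, and skpo-1 fell (-0.84 and -5.87).

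Regulators and targets of the pathways known to act on some of these genes were counted as well, against the same shares of all probe sets (33.3%, 16.6% and 59.2%). Their medians stand beside -0.09, 0.02 and -0.13 over all probe sets. Of 17 genes of insulin and FOXO signalling, 7 rose and 4 fell with RNAi, 4 rose and 0 fell with tunicamycin, and 9 rose and 7 fell in the mutant, with medians of -0.01, 0.15 and 0.25. The transcription factor gene pqm-1 rose in all 3 (2.34, 0.39 and 2.81), and daf-16 itself rose with RNAi (0.81). Of 12 other stress regulators, 8 rose and 0 fell with RNAi, 1 rose and 0 fell with tunicamycin (pmk-1, 0.58) and 10 rose and 1 fell in the mutant, among them egl-9 (1.04 with RNAi) and aak-2 (0.88), an AMP-activated kinase gene. The medians of that list were 0.44, -0.06 and 1.17. Of 16 genes outside the family known to respond to DAF-16, 7 rose and 1 fell with RNAi, 6 and 6 with tunicamycin, and 13 and 1 in the mutant, with medians of 0.36, -0.06 and 2.2. That list was not divided by whether DAF-16 raises or lowers a gene, so its counts and medians give no direction of DAF-16 activity. With tunicamycin, where sod-3 fell, the metallothionein gene mtl-1 rose (5.23) while dod-19 (-3.53) and hsp-16.2 (-2.42) fell.

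Of 5 genes known to respond to SKN-1, 0 rose and 3 fell with RNAi and with tunicamycin, and 1 rose and 4 fell in the mutant, with medians of -1.14, -0.8 and -1.32. The glutathione transferase gene gst-4 fell in each (-1.14, -1.92 and -1.32). Of 7 genes for iron storage and copper handling, 1 rose and 2 fell with RNAi, 2 rose and 2 fell with tunicamycin and 3 rose and 2 fell in the mutant, with medians of -0.23, -0.02 and 0.25. For both lists 33.3%, 16.6% and 59.2% of all probe sets passed in these comparisons. cuc-1, a copper chaperone gene, fell in each (-0.75, -0.38 and -0.7), and the ferritin gene ftn-1 rose in the mutant (2.68).

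Tissue markers moved in the same comparisons. With RNAi in wild type 15 of 15 neuronal markers, 8 of 14 sperm markers and 6 of 7 hypodermis markers were higher (15.6% of all probe sets). Lower were 10 of 16 oocyte and eggshell markers and 1 of 7 hypodermis markers (17.7% of all probe sets). The neuronal markers averaged 7.21 to 7.62 per array against 6.26 to 6.43 on vector. With tunicamycin 7 of 10 muscle markers were lower (8.37% of all probe sets), averaging 8.7 to 8.93 against 9.3 to 9.69 on vector. So were 5 of 14 sperm, 3 of 7 hypodermis and 3 of 15 neuronal markers. Higher were 1 hypodermis and 1 neuronal marker (8.24% of all probe sets), and 0 of 16 oocyte and eggshell markers passed. In the pmt-2 mutant 11 of 14 sperm markers were lower, and 5 of 7 hypodermis markers were higher and 2 lower. Of all probe sets 28.4% were higher and 30.8% lower there. The intestinal markers averaged 7.63 to 7.65 with tunicamycin, 7.85 to 8.31 with RNAi, 8.22 to 8.33 in the pmt-2 mutant and 8.1 to 8.27 on vector. These averages join markers that went both ways. Of the 10 markers 3 were higher and 5 lower with tunicamycin, 2 and 4 with RNAi, and 4 and 4 in the mutant. Of all probe sets 16.6%, 33.3% and 59.2% passed in these comparisons. The part of these shifts in the changes of the dismutase and catalase genes was not tested.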

How the data were processed

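RMA is the normalisation named in the submitters' processing notes, and the authors deposited its log2 values per array. Per the file headers, the deposited comparison tables hold each group's Tukey biweight mean of log2 signals, its SD, a fold change (a signed ratio) and a p-value with its FDR. The SDs of the per-array log2 values matched the deposited SDs, so the per-array values were used. Groups came from titles and characteristics. limma 3.58.1 in R 4.3.3 was fitted once to 30 arrays with a coefficient per group and no block, and p-values were adjusted by the Benjamini-Hochberg method over 28387 probe sets (two-sided, threshold 0.05). 930 rows of the value table that are in no comparison table were not used. The fit was tested on simulated data.

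Named genes were the 8 genes, the targeted genes, from each list at most 3 genes with the largest change past the threshold per main comparison, and the 3 closest patterns among genes, for members spanning at least 1 log2 unit. The genes and lists were chosen with earlier results of these data known. Alternatives were the variance of the compared groups alone, a replicate block, a minimum mean signal, centring, a variance trend, array weights, the deposited means, the authors' FDR and each array left out.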

Additional observations from a re-analysis of the deposited data

Results flagged for a closer look

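In 2 of the 8 genes the response to pmt-2 RNAi differed between the ire-1 mutant and wild type by limma's test of the difference itself, which 6.25% of all probe sets passed. The difference was -1.18 for ctl-3 and -0.56 for ctl-1, on the log2 scale, and both genes rose with RNAi in either genotype.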

How the results depend on the processing

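Over 112 results (8 genes in 14 comparisons), 1580 of 1644 alternative values kept their side of the threshold, 35 no longer passed and 29 newly passed. The sign changed in 50 values of 22 results, none of which passed before or after, and the largest of them was 0.18 in size in the fit over all arrays. Where a count moved, the cause was not tested unless named. Most pairs of same-numbered arrays did not vary together (5 of 60 pairs correlated over 0.1, range -0.26 to 0.27), and the main fit used no pairing. Low correlations cannot exclude that same-numbered arrays were handled together. With the replicate number as a block, the call that changed was ctl-3 in the pmt-2 mutant (adjusted p = 0.0537), which left 6 of the 8 genes called there. No gene had another probe set, so that alternative gave no value. A minimum mean signal of 5 drops sod-3 and sod-5 and tests fewer probe sets.

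Without 1 array, the genes called numbered 4 to 6 for RNAi in wild type, 5 to 7 in the pmt-2 mutant, 1 to 3 in the ire-1 mutant (3 with all arrays), and 0 to 1 for the difference in RNAi response between the pek-1 mutant and wild type. All probe sets called then numbered 25 to 69 in the atf-6 mutant (55 with all arrays), 1167 to 1373 in the ire-1 mutant (1748), 22 to 39 in the pek-1 mutant (32), and, for the differences in RNAi response, 0 to 11 for atf-6 (8) and 146 to 1532 for pek-1 (353).

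With the variance of the compared groups alone, the probe sets called were 5634 for RNAi in wild type (9467 in the fit over all groups), 2970 for tunicamycin (4715), 5, 834 and 5 in the atf-6, ire-1 and pek-1 mutants and 7488 for tunicamycin against RNAi (11279). For the differences in RNAi response they were 0 for atf-6, 1096 for ire-1 (1775) and 36 for pek-1. The genes called were then 1 in the ire-1 mutant (sod-3) and 1 for the ire-1 difference in RNAi response (ctl-3). By the authors' FDR the probe sets called were 2860 for RNAi in wild type, 1710 for tunicamycin, 6, 299 and 0 in the atf-6, ire-1 and pek-1 mutants and 5323 for RNAi in the atf-6 mutant (8478), with 1 of the 8 genes called in the ire-1 mutant. That gene was sod-1 (0.0491), while sod-3, ctl-2 and ctl-3 did not pass (0.0869, 0.193 and 0.163). From the deposited means the probe sets called were 212 and 93 in the atf-6 and pek-1 mutants, and 13 and 846 for the differences in RNAi response of atf-6 and pek-1.

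With the minimum mean signal the counts were 9035 in the pmt-2 mutant (16807), 108 in the atf-6 mutant, 7990 for RNAi in the pek-1 mutant (12460), 13 for the atf-6 difference in RNAi response and 8400 for the pmt-2 mutant against RNAi (14616). With a variance trend 94 probe sets were called in the atf-6 mutant, and with centring 5 for the atf-6 difference in RNAi response. The array weights did not converge, giving wild-type RNAi array 3 a weight of 27.37 against 0.39 and 0.29 for the other arrays of its group. With them 8 genes were called for RNAi in wild type, where 13890 of 28387 probe sets were, and 5 in the ire-1 mutant, where 2507 were. The probe sets called were 95 in the atf-6 mutant and 262, 4936 and 3002 for the atf-6, ire-1 and pek-1 differences in RNAi response. For the pek-1 difference 1 gene (sod-4) was called with the trend, the weights, the minimum signal, centring or the deposited means.

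Centring on the median change raised the share of higher calls from 46.8% to 59.7% for RNAi in wild type, from 46.1% to 59.7% for RNAi with atf-6 disrupted, from 50.8% to 65.6% with ire-1 disrupted and from 42.7% to 58.7% with pek-1 disrupted, and lowered it from 55.9% to 40.3% for tunicamycin against RNAi. Precision is limited by having 3 arrays in a group, and no measure of background per probe set was used.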
